A study of Mus musculus with 9 samples.

Results

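The 34 genes described here code for glucose uptake, glycolysis, lactate handling, the pyruvate dehydrogenase gate, the pentose phosphate pathway and the hypoxia-inducible factor HIF1 with its regulators. They were chosen by function, as the rows of the count table that carry their symbols. Each symbol had 1 row, so the set is 34 of the 51826 genes counted, and all 34 were among the 14458 genes with enough counts to be tested. The RNA came from RAW 264.7, a virus-transformed mouse macrophage line, grown in 9 cultures that the labels call biological replicates, 3 in each group. In the calycosin plus LPS group, cells were given calycosin, an isoflavone of Astragalus root, at 100 µg/mL for 24 h and then lipopolysaccharide (LPS) at 300 ng/mL for 6 h. LPS cells received the same LPS exposure without calycosin, and vehicle cells received solvent. No culture received calycosin alone. Nothing in the labels ties a replicate number to a shared day or batch, and p-values measure only the spread between these cultures of 1 line.

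Glycolysis splits glucose into pyruvate, which is reduced to lactate in the cytosol or enters mitochondria through pyruvate dehydrogenase, while the pentose phosphate branch takes glucose 6-phosphate into NADPH and ribose. HIF1 is a transcription factor whose alpha subunit, Hif1a, is hydroxylated by the prolyl hydroxylases Egln1 and Egln3 when oxygen is present and is then marked for destruction by Vhl. In macrophages, LPS is known to raise glucose uptake and lactate output and to stabilise HIF1, and many glycolytic genes are known HIF1 targets. Transcript levels were measured here, not metabolite fluxes, enzyme amounts or the HIF1 protein.

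Known HIF1 response elements are built on the core ACGTG or GCGTG, so the promoters were searched for that core on both strands. In RefSeq promoter windows (250 bases before to 50 after each start, GRCm38.p6), all 34 genes were matched, with 47 windows. The core was found in 38 of 47 windows (80.9%), for 31 of 34 genes, and in 43.8% of all 32851 windows. GC content was 61.4% in these windows and 53.8% in all windows, and its part in the share was not tested. The E-box CACGTG, which contains ACGTG on both strands, was found in 12.8% of these windows and in 7.15% of all windows. A simple kappaB consensus matched 0 of the 47 windows and 4.79% of all windows. A match is a description of the letters and not a binding site, and no match says only that these letters are not in this window. The 250 bases before the start are shown 5′ to 3′ for 5 of the genes described below, with the core in capitals on either strand (CACGT and CACGC are its reverse). These genes were picked with their values known and are not the 5 largest changes of a comparison. They are the glucose transporter gene Slc2a1 (chr4:119108495-119108744, plus strand, 2 core matches), the lactate dehydrogenase gene Ldha (chr7:46845554-46845803, plus strand, 5 matches, with 2 E-boxes), the lactate transporter gene Slc16a1 (chr3:104638414-104638663, plus strand, 4 matches, with 1 E-box), the pyruvate dehydrogenase kinase gene Pdk1 (chr2:71872974-71873223, plus strand, 1 match) and the prolyl hydroxylase gene Egln3 (chr12:54203875-54204124, minus strand, 1 match).
Slc2a1: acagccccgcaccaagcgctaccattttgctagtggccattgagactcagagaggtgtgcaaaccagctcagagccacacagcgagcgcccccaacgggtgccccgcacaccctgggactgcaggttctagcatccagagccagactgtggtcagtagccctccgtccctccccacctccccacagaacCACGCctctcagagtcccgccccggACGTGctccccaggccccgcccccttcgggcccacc
Ldha: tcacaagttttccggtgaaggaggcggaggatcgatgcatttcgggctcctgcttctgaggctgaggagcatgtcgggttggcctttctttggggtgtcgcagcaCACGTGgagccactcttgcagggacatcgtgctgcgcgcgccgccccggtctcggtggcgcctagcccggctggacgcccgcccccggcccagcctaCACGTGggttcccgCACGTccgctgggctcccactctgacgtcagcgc
Slc16a1: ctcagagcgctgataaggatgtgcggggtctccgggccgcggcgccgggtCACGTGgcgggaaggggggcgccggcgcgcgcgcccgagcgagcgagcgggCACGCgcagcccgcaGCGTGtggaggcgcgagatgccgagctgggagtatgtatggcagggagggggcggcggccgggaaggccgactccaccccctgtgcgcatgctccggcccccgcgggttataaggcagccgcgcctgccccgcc
Pdk1: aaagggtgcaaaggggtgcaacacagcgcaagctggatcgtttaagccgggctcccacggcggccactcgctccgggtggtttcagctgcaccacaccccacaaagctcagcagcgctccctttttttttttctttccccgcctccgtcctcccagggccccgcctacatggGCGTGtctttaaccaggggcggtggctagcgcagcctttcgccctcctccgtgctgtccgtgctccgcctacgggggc
Egln3: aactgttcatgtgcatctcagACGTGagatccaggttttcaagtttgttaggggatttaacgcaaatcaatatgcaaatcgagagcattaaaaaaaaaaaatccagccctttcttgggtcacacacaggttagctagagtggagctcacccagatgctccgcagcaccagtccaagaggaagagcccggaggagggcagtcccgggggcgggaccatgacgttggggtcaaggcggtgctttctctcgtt
The cores nearest to the start lay 36 bases upstream in Slc2a1, 34 in Ldha, 134 in Slc16a1, 78 in Pdk1 and 229 in Egln3. Slc2a1 and Egln3, which moved in opposite directions with LPS, both carried the core in these windows. So did windows of most of the set (31 of 34 genes), and a relation of the core to the direction of change was not tested.

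Total counts per library ran from 27784737 to 38524105. Mitochondrially encoded genes took 7.45% to 19.4% of counts in the calycosin plus LPS libraries, 13.0% to 14.7% in the LPS libraries and 3.68% to 21.9% in the vehicle libraries. Calycosin plus LPS library 2 (7.45%) and vehicle library 3 (21.9%) stood apart from the other libraries of their groups, and each result was also computed without both. What set these libraries apart was not tested, and every value that rests on them carries that doubt. Libraries with a mitochondrial share above 10% were also compared alone (called high mitochondrial libraries below). Vehicle library 3 is then the only vehicle library, its spread is taken from the other groups, and against vehicle such values are given as sizes, with no call read from them. The 34 genes took 0.660% to 0.977% of counts in the calycosin plus LPS libraries, 0.826% to 0.894% in the LPS libraries and 1.08% to 1.97% in the vehicle libraries. Levels are CPM, the usual depth-scaled counts, on effective library sizes from TMM normalisation, and differences are log2 fold changes ± SE from edgeR, with p adjusted over all genes tested and a threshold of 0.05. All 8 macrophage markers searched for were detected, with Mrc1 at 1.79 CPM or less and Adgre1 at 4.41 to 13.7 CPM. Of 16 markers of other cell types 9 were at 0 in every library, and the list summed to 0.821 to 1.22 CPM in the calycosin plus LPS libraries, 4.69 to 6.51 CPM in the LPS libraries and 0.760 to 0.882 CPM in the vehicle libraries (Cdh5, an endothelial gene, at 0.610 to 0.777, 3.78 to 5.45 and 0.123 to 0.517 CPM in the same order of groups). The part of this list in the results was not tested, and fewer cells of a type cannot be told apart from less RNA per cell in bulk libraries.

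**Figure D1:**
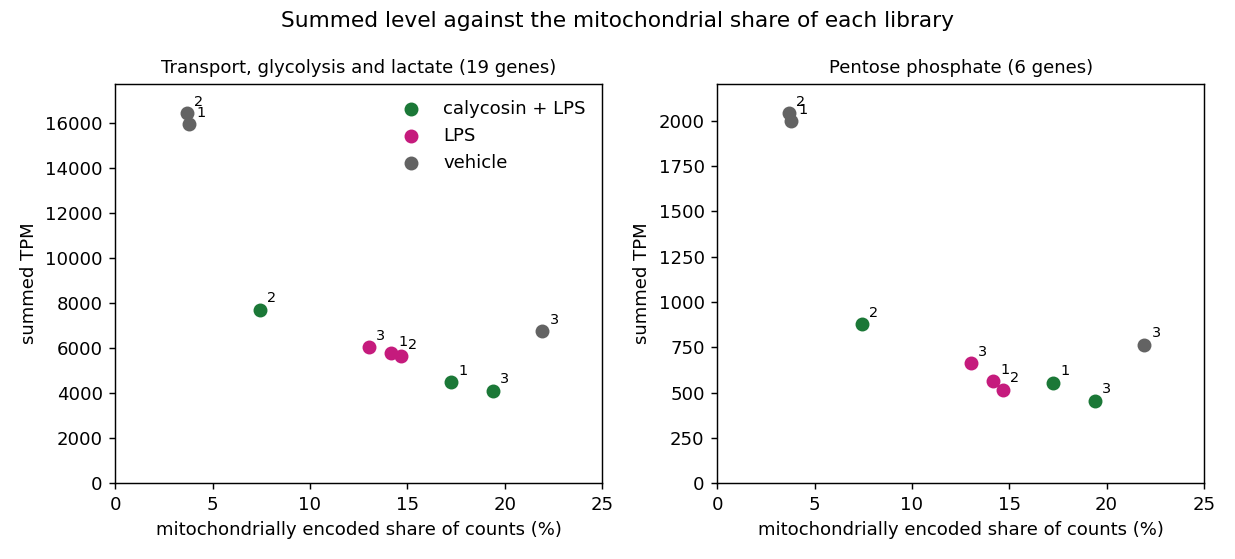
Summed TPM (the authors' length- and depth-scaled values) of the 19 transport, glycolysis and lactate genes (left) and the 6 pentose phosphate genes (right) in each library, against the mitochondrially encoded share of its counts in percent; points are libraries with their replicate number. Vehicle libraries 1 and 2, at 15960 and 16460 TPM for glycolysis, lie above all others, and vehicle library 3, at 6767 TPM, lies near the LPS libraries at 5639 to 6034 TPM.

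Per length, the 19 transport, glycolysis and lactate genes summed to 5446 ± 1975 TPM in calycosin plus LPS cells, 5823 ± 199 TPM in LPS cells and 13060 ± 5457 TPM in vehicle cells (SD, n = 3 each). The 6 pentose phosphate genes summed to 629 ± 220, 581 ± 74.0 and 1601 ± 725 TPM in the same order of groups. Within a group the sums were low where the mitochondrial share was high, as the plot of summed TPM shows. With the mitochondrial transcripts taken out of the total, glycolysis stood at 6515, 8996 and 6267 rescaled TPM in calycosin plus LPS libraries, 7931, 7765 and 7883 in LPS libraries and 17230, 17730 and 10920 in vehicle libraries. All 3 vehicle libraries were then above the other 6, with vehicle library 3 nearest to them.

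LPS moved these genes in both directions. Against vehicle, 6 of 34 rose and 15 fell, where 27.3% of all genes tested rose and 28.9% fell (56.3% either way). The genes that rose were the glucose transporters Slc2a1 and Slc2a6, the hexokinases Hk2 and Hk3, the phosphofructokinase Pfkp and Hif1a. The genes that fell included Egln3 and Egln1, Pdk1, Slc16a1, Ldha, Pkm and 5 of the 6 pentose phosphate genes. The median log2 fold change was -0.58 over the 34 genes and -0.07 over all genes, and the groups did not overlap for 23 of 34 genes (60.8% of all genes, with 29.5% higher and 31.3% lower). On the authors' TPM, a scale on which the median of all genes was -0.73, limma called 2 rises (Slc2a6 and Hif1a) and 22 falls, where 1284 of 12408 genes rose and 6269 fell. Relative to that median all 6 rises and all 15 falls kept their sign. Within high mitochondrial libraries (3 LPS, 1 vehicle) the 6 rises were 0.64 to 2.65 and the 15 falls -2.73 to -0.19, all with the same sign.

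Calycosin before LPS went with lower transcript levels for a block of glucose-uptake and glycolytic genes. Against LPS alone, 12 of 34 fell and 2 rose, where 12.9% of all genes tested fell and 16.1% rose (29.1% either way). The falls were Slc2a1, Hk2, Hk3, Gpi1, Pfkp, Pgk1, Pgam1, Eno1, Ldha, Pdk1, the pentose phosphate entry enzyme G6pdx and the HIF1 target Bnip3, by 1.44-fold (Gpi1) to 1.98-fold (Slc2a1). The rises were Slc16a1 and Pfkfb4. The median log2 fold change was -0.47 over the 34 genes and 0.02 over all genes, and the groups did not overlap for 22 of 34 genes (49.7% of all genes, with 26.3% higher and 23.4% lower). All 14 calls held without the libraries that stand apart and within the libraries of high mitochondrial share (2 calycosin plus LPS, 3 LPS), where 19 and 20 genes were lower. On TPM, with a median of all genes at 0.30, limma called 1 rise (Slc16a1) and no fall (0 also at an unadjusted p below 0.05). On that scale 1292 of 12408 genes rose and 256 fell. DESeq2 on the counts called 15 falls. The 12 falls kept their sign on TPM, at -0.67 (Slc2a1) to -0.03 (Gpi1), with Pdk1 at -0.16 and Bnip3 at -0.20. Leaving out calycosin plus LPS library 1, 2 or 3 gave 7, 11 and 6 falls, and leaving out LPS library 1, 2 or 3 gave 8, 9 and 8. In all 9 fits that each left out 1 library, 5 of the 12 falls were called (Slc2a1, Hk2, Pfkp, Pgam1 and G6pdx). Of the 2 rises 1 was (Slc16a1).

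Set against vehicle, cells given calycosin plus LPS were lower in most of the set. Of 34 genes 22 were lower and 2 higher (Slc2a6 and Hif1a), where 23.6% of all genes tested were lower and 25.4% higher (49% either way). All 6 pentose phosphate genes, all 3 lactate genes and 6 of 7 genes of lower glycolysis were lower. In all 9 fits that each left out 1 library, 19 of the 22 were called. Pgk1, Rpia and Slc16a1 lost their calls in 8, 7 and 5 of these fits (adjusted p up to 0.143). The median log2 fold change was -0.75 over the 34 genes and 0 over all genes, and groups did not overlap for 19 of 34 genes (56.2% of all genes, with 29.1% higher and 27.1% lower). Within high mitochondrial libraries (2 calycosin plus LPS, 1 vehicle) the 22 kept their sign, at -2.88 to -0.07, with Pgk1 nearest to 0. Hif1a was at 0.36 there, and it was not called without calycosin plus LPS library 1 or 3 or vehicle library 1 or 2 (0.58 to 0.74, adjusted p up to 0.105). The 3 comparisons share libraries in pairs, so the calls of a gene in them are not independent of each other.

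**Figure D2:**
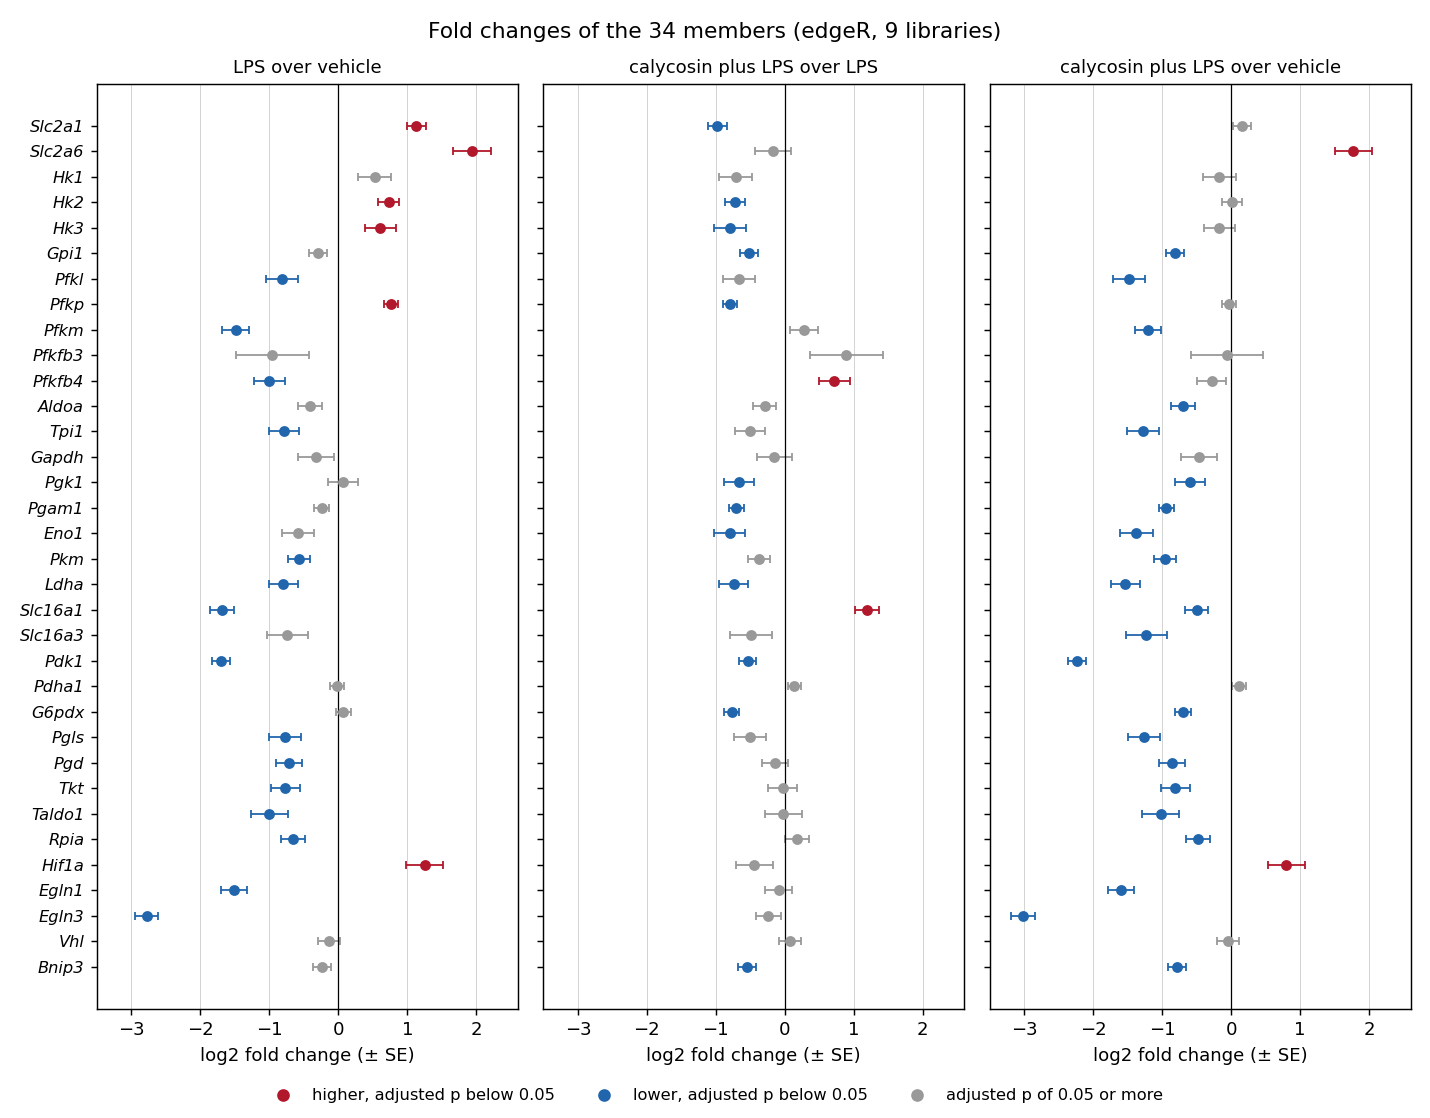
Log2 fold change ± SE (x axis) of the 34 genes (y axis, in order of role) in the 3 comparisons, from edgeR on 9 libraries; red points are higher and blue points lower at an adjusted p below 0.05, and grey points did not pass. Red points in the first panel are Slc2a1, Slc2a6, Hk2, Hk3, Pfkp and Hif1a (Hk2 and Hk3 are at -0.02 and -0.08 on TPM), and 12 points are blue in the second.

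By the 3 calls together, 4 genes rose with LPS, were lower when calycosin preceded it and were not called against vehicle: Slc2a1, Hk2, Hk3 and Pfkp. Without the libraries that stand apart, calycosin plus LPS over vehicle was called for Hk3 (-0.60, adjusted p = 0.00266) and Hk2 (-0.25, adjusted p = 0.0178). Slc2a1 was called higher than vehicle with a GC content correction (0.40, adjusted p = 0.0069) and with mitochondrial share as a covariate (0.25, adjusted p = 0.0122). In 4 of 22 alternatives its difference from vehicle changed sign. Slc2a6 and Hif1a rose with LPS and were still higher than vehicle. Ldha and Pdk1 were lower in each step, and 11 genes (Pfkl, Pfkm, Tpi1, Pkm, Pgls, Pgd, Tkt, Taldo1, Rpia, Egln1 and Egln3) were lower in both LPS groups than in vehicle with no call between the LPS groups. A further 6 genes (Gpi1, Pgk1, Pgam1, Eno1, G6pdx and Bnip3) were not called with LPS and were lower with calycosin plus LPS than in both other groups. Gapdh, Hk1, Pdha1, Pfkfb3 and Vhl were called in none of the 3. These patterns of calls rest on edgeR with all 9 libraries, and some alternatives called Hk1, Pdha1 or Pfkfb3 in a comparison. With the libraries that stand apart left out, Gpi1, Pgk1, Pgam1 and Eno1 also fell with LPS. Their changes were -0.88 to -0.23 (adjusted p up to 0.0205). Pfkl, Tpi1 and Pkm were then called between the LPS groups (-0.79, -0.67 and -0.46, adjusted p up to 0.00116). Gapdh was then called against vehicle, at -0.54 with LPS (adjusted p = 0.0356) and -0.92 with calycosin plus LPS (adjusted p = 0.0065). G6pdx and Bnip3 kept their pattern.

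**Figure D3:**
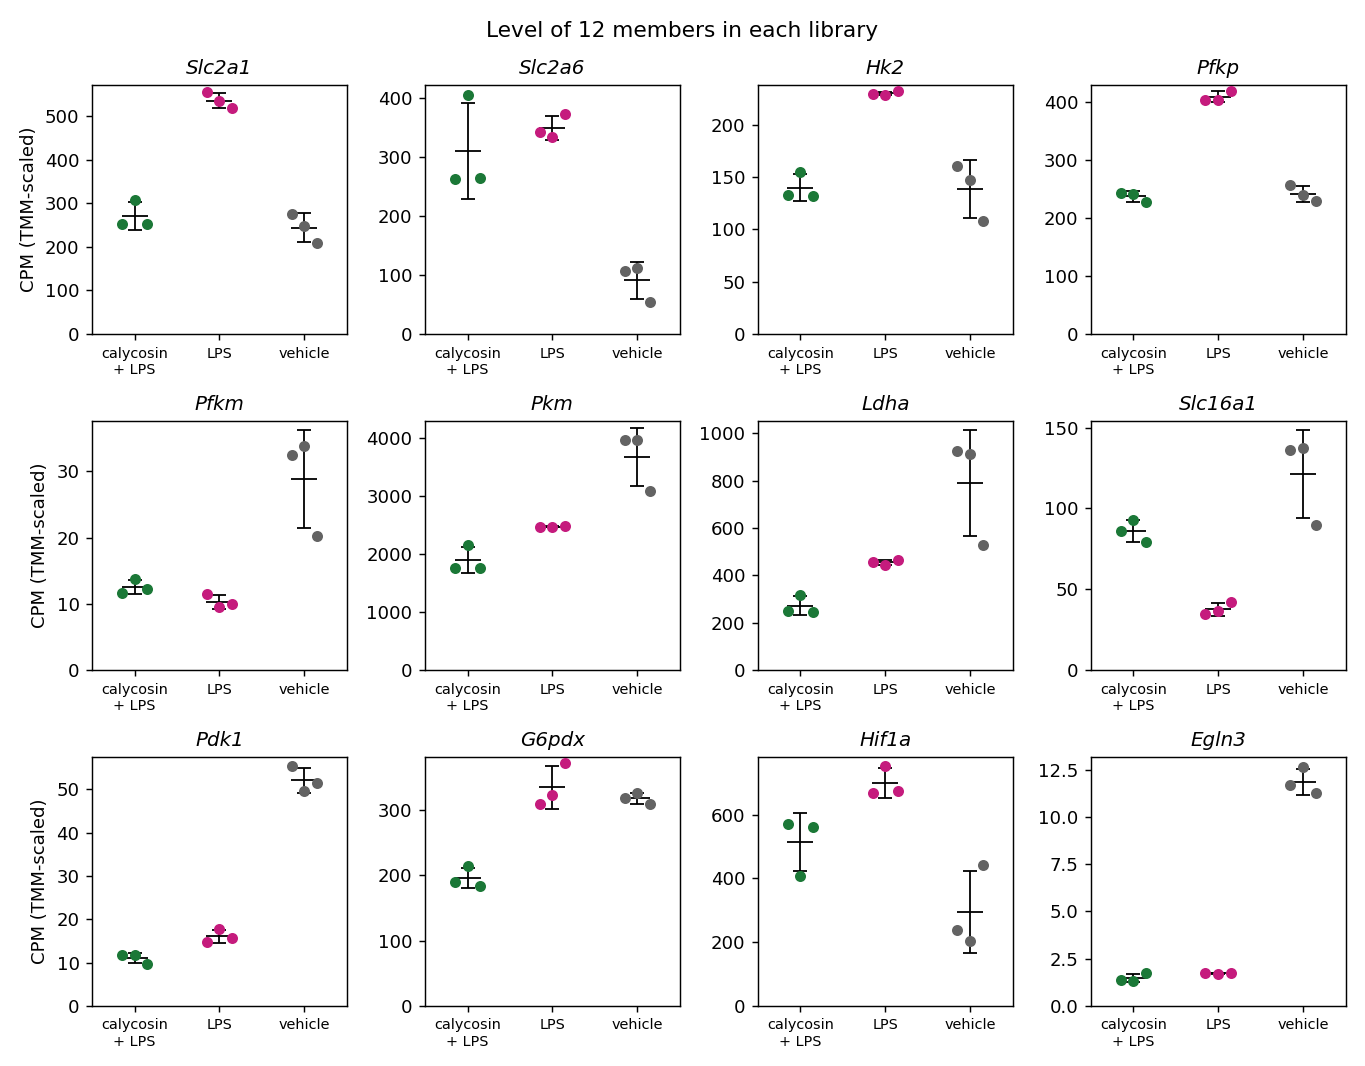
Level in CPM (TMM-scaled) of 12 genes in each library, with calycosin plus LPS, LPS and vehicle from left to right; points are libraries, bars the mean and SD of 3, and each y axis starts at 0. Slc2a1, Hk2 and Pfkp are highest in LPS libraries on this scale, Slc16a1 is lowest there, and Pdk1 and Egln3 are high only in vehicle libraries among these 9.

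Slc2a1 codes for GLUT1, the general glucose carrier of the cell surface. Its level was 252, 307 and 253 CPM in calycosin plus LPS libraries, 554, 534 and 519 CPM in LPS libraries and 276, 248 and 208 CPM in vehicle libraries. All 3 LPS libraries lay above the other 6, which overlapped. LPS raised it 2.19-fold over vehicle (log2 1.13 ± 0.14, adjusted p = 7.45e-05), although on TPM the rise was 0.37 and was not called (adjusted p = 0.370). With calycosin plus LPS it was 1.98-fold lower than with LPS (-0.98 ± 0.14, adjusted p = 0.000835), and against vehicle the difference was 0.15 with an interval of ± 2 SE of -0.12 to 0.42. The gene lies at chr4:119108711-119137983 on the plus strand (GRCm38).

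Slc2a6 codes for GLUT6, a transporter known from lysosomes of inflammatory macrophages, and it had the largest rise of the set with LPS. It stood at 263, 405 and 265 CPM in calycosin plus LPS libraries, 342, 333 and 373 CPM in LPS libraries and 107, 112 and 54.7 CPM in vehicle libraries. Both LPS groups lay above vehicle and overlapped each other. The rise with LPS was 3.83-fold (1.94 ± 0.27, adjusted p = 0.00022) and that of calycosin plus LPS over vehicle 3.41-fold (1.77 ± 0.27, adjusted p = 0.000567). Between the LPS groups the difference was -0.17 (interval -0.69 to 0.36), which was 0.13 on TPM and -0.39 (adjusted p = 0.0144) within high mitochondrial libraries. Per length, Slc2a6 made up 62.0% ± 2.41 of the TPM of both transporters in calycosin plus LPS cells, 48.2% ± 2.98 in LPS cells and 33.3% ± 5.00 in vehicle cells (SD, n = 3 each), a share that does not depend on library scaling.

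Hexokinases trap glucose as glucose 6-phosphate, and Hk2 is the form usually induced on activation. Hk2 was at 133, 155 and 132 CPM in calycosin plus LPS libraries, 229, 228.5 and 232 CPM in LPS libraries and 160.5, 147 and 108 CPM in vehicle libraries. The LPS libraries were above the others, and calycosin plus LPS and vehicle overlapped. LPS raised Hk2 over vehicle 1.66-fold on counts (0.73 ± 0.15, adjusted p = 0.00227), with -0.02 on TPM. It was 1.64-fold below its LPS level with calycosin plus LPS (-0.72 ± 0.15, adjusted p = 0.00635). Hk3, at 109, 161 and 131 CPM with calycosin plus LPS, 253, 221 and 217 CPM with LPS and 174, 179.8 and 98.0 CPM in vehicle libraries, followed the same calls. Its rise with LPS (0.61 ± 0.23, adjusted p = 0.0445) was 0.32 without vehicle library 3 (adjusted p = 0.0921) and -0.08 on TPM, and it was also lost without any 1 LPS library, vehicle library 1 or calycosin plus LPS library 3 (adjusted p up to 0.122). The fall of Hk3 with calycosin plus LPS (-0.79 ± 0.23, adjusted p = 0.0293) was lost without any 1 LPS library or calycosin plus LPS library 1 or 3 (-0.65 to -0.82, adjusted p up to 0.107). For Hk1 LPS library 1 was at 508 CPM and LPS libraries 2 and 3 at 277 and 302 CPM, and it was called in none of the 3 comparisons. Its difference of calycosin plus LPS over LPS (-0.71, adjusted p = 0.0554) was called in 6 of 22 alternatives, among them DESeq2 (-0.73, adjusted p = 0.0213). The LPS over vehicle difference of Hk1 (0.53) was called in 2 of 22, among them the GC correction (0.96, adjusted p = 0.00504), and was -0.34 on TPM. The hexokinase make-up per length overlapped between all groups, with Hk2 at 20.1% ± 2.55, 20.3% ± 3.18 and 18.1% ± 0.561 of the 3 forms in calycosin plus LPS, LPS and vehicle cells.

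Phosphofructokinase commits sugar to glycolysis, and its isozymes parted with LPS. Pfkp, the platelet form, was at 244, 241 and 227 CPM in calycosin plus LPS libraries, 404, 404 and 419.8 CPM in LPS libraries and 256.5, 240.1 and 229.5 CPM in vehicle libraries. The LPS libraries stood clear of the others by more than the spread within any group. It rose 1.69-fold with LPS over vehicle (0.76 ± 0.10, adjusted p = 0.000125; 0.05 and not called on TPM) and was 1.72-fold below that level with calycosin plus LPS (-0.79 ± 0.10, adjusted p = 0.000521). Pfkl, the liver form, stood at 47.5, 60.8 and 43.85 CPM with calycosin plus LPS, 82.2, 73.0 and 85.9 CPM with LPS and 169, 165 and 90.2 CPM in vehicle libraries. Pfkm, the muscle form, stood at 11.65, 13.7 and 12.2 CPM with calycosin plus LPS, 11.5, 9.43 and 9.89 CPM with LPS and 32.4, 33.8 and 20.3 CPM in vehicle libraries. Both were below all vehicle libraries in both LPS groups. Against vehicle Pfkm fell 2.81-fold with LPS (-1.49 ± 0.20, adjusted p = 0.000151) and was 2.31-fold lower with calycosin plus LPS (-1.21 ± 0.19, adjusted p = 0.000787). The fall of Pfkl with LPS (-0.82 ± 0.23, adjusted p = 0.0125) was not called with a GC content correction (-0.33, adjusted p = 0.109) and was -0.19 within high mitochondrial libraries. Pfkl was 2.79-fold lower with calycosin plus LPS than with vehicle (-1.48 ± 0.23, adjusted p = 0.000653). Pfkp overlaps the opposite-strand gene Pitrm1 and Pfkm overlaps Senp1, and the strandedness of the counts is not given in the sources used here.

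**Figure D4:**
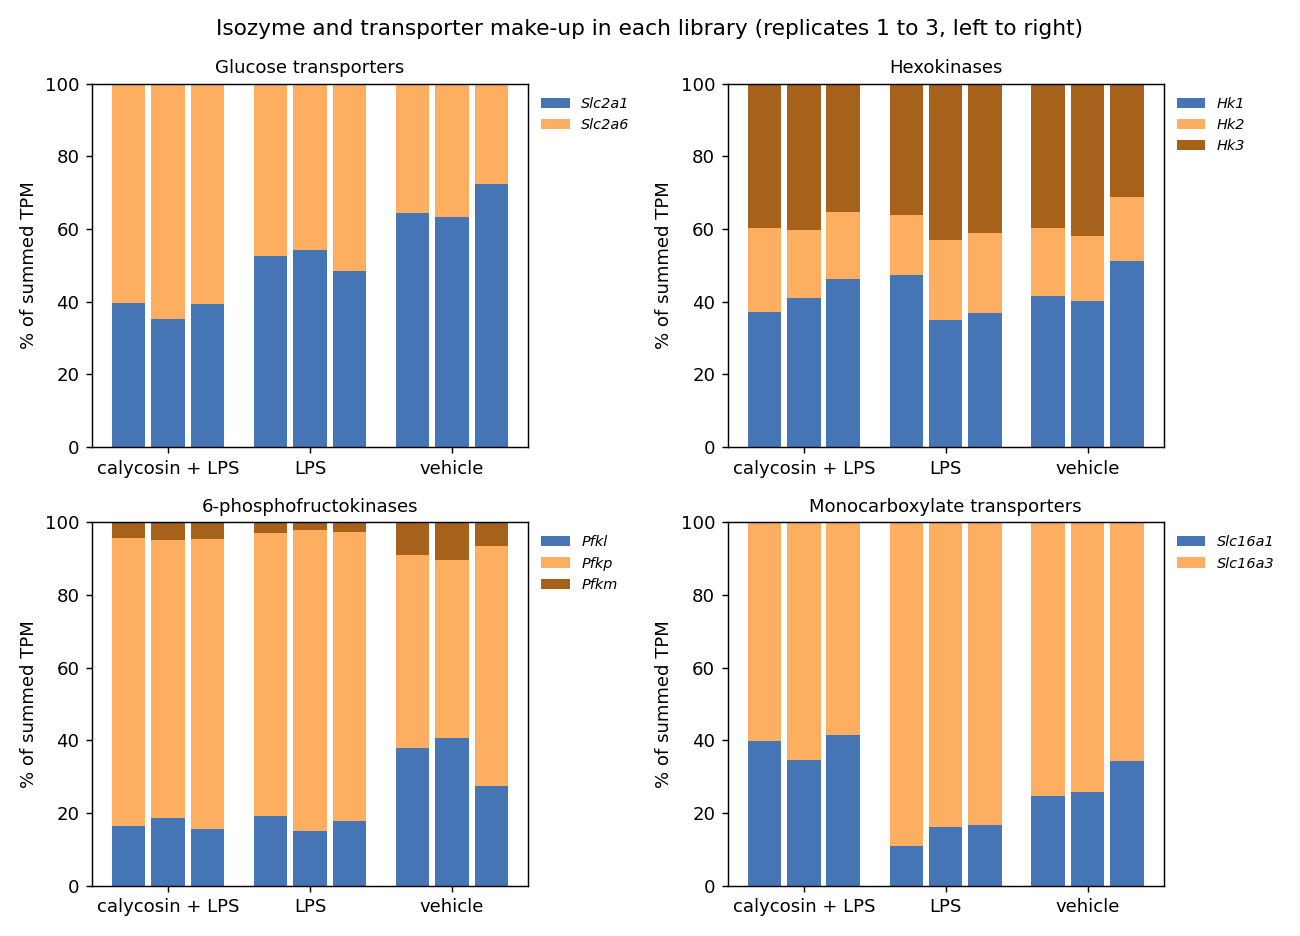
Make-up of glucose transporters, hexokinases, 6-phosphofructokinases and monocarboxylate transporters in each library, as percent of the summed TPM of the forms shown (y axis); 3 bars a group, replicates 1 to 3 from left to right, with calycosin plus LPS, LPS and vehicle in that order. Pfkp takes 76.45% to 82.9% of phosphofructokinase TPM in both LPS groups and 49.1% to 66.2% in vehicle, and Slc16a1 takes its lowest share, 11.05% to 16.6%, in LPS libraries.

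As a share of phosphofructokinase TPM, Pfkp made up 78.5% ± 1.80 in calycosin plus LPS cells, 80.1% ± 2.57 in LPS cells and 56.1% ± 8.91 in vehicle cells. Vehicle library 3 had the highest Pfkp share of its group, at 66.2%, still below all 6 LPS-treated libraries. The share in the calycosin plus LPS group was close to that in LPS cells although the Pfkp level was not; the Pfkl level was also lower there in every library (43.85 to 60.8 CPM, against 73.0 to 85.9 CPM with LPS).

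The bifunctional enzymes Pfkfb3 and Pfkfb4 set fructose 2,6-bisphosphate, the activator of phosphofructokinase. Pfkfb3 was at 41.1, 34.4 and 14.9 CPM in calycosin plus LPS libraries, 9.88, 9.84 and 28.9 CPM in LPS libraries and 22.7, 21.1 and 50.8 CPM in vehicle libraries. In CPM 1 library in each group departed from the other 2 and all groups overlapped. No comparison was called in edgeR (intervals -0.17 to 1.96 for calycosin plus LPS over LPS and -2.02 to 0.11 for LPS over vehicle). On TPM Pfkfb3 stood at 16.3, 21.15 and 6.81 with calycosin plus LPS, 3.24, 4.52 and 10.3 with LPS and 26.2, 23.75 and 26.5 in vehicle libraries. There limma called a fall with LPS over vehicle (-2.04, adjusted p = 0.00268, with the median of all genes at -0.73). Pfkfb4 was at 9.08, 10.8 and 7.61 CPM with calycosin plus LPS, 6.28, 5.29 and 5.19 CPM with LPS and 11.75, 13.7 and 7.999 CPM in vehicle libraries. It fell with LPS (-1.0 ± 0.22, adjusted p = 0.00359; -0.54 within high mitochondrial libraries) and was higher with calycosin plus LPS than with LPS (0.72 ± 0.22, adjusted p = 0.0359). That rise was lost without any 1 LPS library, calycosin plus LPS library 1 or 2, or vehicle library 1 (0.58 to 0.81, adjusted p up to 0.116). The isomerase gene Gpi1, before phosphofructokinase, fell 1.44-fold with calycosin plus LPS over LPS (-0.52 ± 0.13, adjusted p = 0.0156). Without calycosin plus LPS library 1 this fall was -0.48 (adjusted p = 0.0668), and on TPM it was -0.03 and not called.

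In lower glycolysis the calycosin plus LPS group had the lowest mean CPM for all 7 genes, though its library 2 was above the LPS libraries for Gapdh (565 CPM, against 459 to 499 CPM), and its mean TPM was above that of LPS cells for Aldoa (747 ± 248.9 against 707 ± 44.4) and Gapdh (558 ± 305 against 450.1 ± 36.05). Pkm, the pyruvate kinase gene, had the highest TPM of the set in every group, at 1464 ± 501 TPM with calycosin plus LPS, 1465 ± 48.0 TPM with LPS and 3881 ± 1466 TPM in vehicle cells. In CPM it stood at 1760, 2151 and 1757 with calycosin plus LPS, 2456, 2459 and 2476 with LPS and 3949, 3956 and 3088 in vehicle libraries. The 3 groups did not overlap. The fall with LPS over vehicle was 1.49-fold (-0.57 ± 0.16, adjusted p = 0.0123; -0.08 and not called with a GC correction), and calycosin plus LPS over vehicle gave -0.96 ± 0.16 (adjusted p = 0.000999). Between the LPS groups the difference of -0.38 did not pass in edgeR (adjusted p = 0.1), while it did in DESeq2 (adjusted p = 0.0287) and within high mitochondrial libraries (-0.47, adjusted p = 0.00422). Pkm shares exon bases with the same-strand transcript Gm49759, whose counts, when added, left these calls as they were.

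Eno1 codes for the main enolase. It was at 209, 282 and 257 CPM in calycosin plus LPS libraries, 489, 385 and 427 CPM in LPS libraries and 778, 756 and 415 CPM in vehicle libraries. Vehicle library 3 fell among the LPS libraries, and the calycosin plus LPS libraries were below all others. With calycosin plus LPS, Eno1 was 1.74-fold lower than with LPS (-0.80 ± 0.23, adjusted p = 0.0287) and 2.61-fold lower than with vehicle (-1.38 ± 0.24, adjusted p = 0.00107). The call against LPS was lost without any 1 LPS library or calycosin plus LPS library 1 or 3 (-0.68 to -0.87, adjusted p up to 0.106). LPS over vehicle gave -0.58 (adjusted p = 0.055) and 0.04 within high mitochondrial libraries. A near-identical copy, Eno1b, held 35.6% as many counts as Eno1; with both summed, the difference of Eno1, LPS over vehicle, was called (-0.56, adjusted p = 0.0437) and the other 2 calls held.

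Pgam1, a phosphoglycerate mutase, fell with calycosin plus LPS over LPS, called in all 9 fits that each left out 1 library (-0.70 ± 0.11, adjusted p = 0.00188). Its levels were 366, 404 and 367 CPM with calycosin plus LPS, 646, 621 and 578 CPM with LPS and 710.1, 687 and 782 CPM in vehicle libraries. The 3 groups did not overlap, although LPS over vehicle was not called (-0.24, adjusted p = 0.0943). Pseudogenes of Pgam1 held 9.79% as many counts, and adding them kept the calls. Pgk1 (-0.66, adjusted p = 0.0483) lost its call against LPS in 8 of the 9 fits, all but the one without vehicle library 3 (adjusted p up to 0.141). Tpi1 fell with LPS (-0.79, adjusted p = 0.0135; -0.21 within high mitochondrial libraries), and Aldoa and Tpi1 were lower with calycosin plus LPS than with vehicle (-0.70 and -1.28). For Gapdh, often used as a control gene, the differences were -0.32 with LPS over vehicle (interval -0.83 to 0.19), -0.15 with calycosin plus LPS over LPS and -0.47 with calycosin plus LPS over vehicle. Vehicle library 2 stood at 833 CPM for Gapdh and vehicle libraries 1 and 3 at 491 and 448 CPM.

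Lactate genes moved apart. Ldha, the A subunit of lactate dehydrogenase, was at 249.9, 319 and 247 CPM in calycosin plus LPS libraries, 457, 442 and 464 CPM in LPS libraries and 925, 913 and 529.7 CPM in vehicle libraries. The 3 groups did not overlap. The fall with LPS over vehicle was 1.74-fold (-0.80 ± 0.21, adjusted p = 0.00883; -0.24 within high mitochondrial libraries). A further 1.67-fold separated calycosin plus LPS from LPS (-0.74 ± 0.21, adjusted p = 0.0247), which was lost without any 1 LPS library or calycosin plus LPS library 1 or 3 (-0.67 to -0.76, adjusted p up to 0.0898). Against vehicle, calycosin plus LPS gave -1.54 ± 0.21 (adjusted p = 0.000283).

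Slc16a1 codes for MCT1, a carrier that moves lactate and pyruvate with a proton. Its level was 86.2, 92.5 and 78.9 CPM in calycosin plus LPS libraries, 34.4, 36.5 and 42.0 CPM in LPS libraries and 136, 138 and 89.7 CPM in vehicle libraries. LPS libraries were the lowest, and calycosin plus LPS library 2 overlapped vehicle library 3. LPS lowered it 3.22-fold (-1.69 ± 0.17, adjusted p = 2.67e-05). Calycosin plus LPS was 2.28-fold higher than LPS (1.19 ± 0.17, adjusted p = 0.00108), the only rise of the set over LPS that limma also called on TPM (1.44, adjusted p = 0.0308), and it was called in all 9 fits that left out 1 library. Against vehicle it was lower (-0.50 ± 0.17, adjusted p = 0.0342), at -0.12 within high mitochondrial libraries, and the call was lost without LPS library 2, calycosin plus LPS library 1 or 3, or vehicle library 1 or 2 (-0.43 to -0.49, adjusted p up to 0.121). Slc16a3, which codes for MCT4, the carrier usual in lactate-exporting cells, was not called between the LPS groups (-0.49, interval -1.10 to 0.11). Of the TPM of both carriers Slc16a1 made up 38.6% ± 3.56 with calycosin plus LPS, 14.6% ± 3.12 with LPS and 28.2% ± 5.23 in vehicle cells.

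Pdk1 codes for a kinase that shuts pyruvate dehydrogenase and is a known HIF1 target. It stood at 11.7, 11.7 and 9.75 CPM in calycosin plus LPS libraries, 14.8, 17.8 and 15.6 CPM in LPS libraries and 55.3, 49.5 and 51.5 CPM in vehicle libraries. In CPM all groups were apart and vehicle library 3 lay with its group. On TPM the LPS groups overlapped (3.59 to 6.27 with calycosin plus LPS and 4.14 to 7.655 with LPS). The falls against vehicle were 3.25-fold with LPS (-1.70 ± 0.13, adjusted p = 3.38e-06) and 4.71-fold with calycosin plus LPS (-2.24 ± 0.13, adjusted p = 8.66e-07), and within high mitochondrial libraries they were -1.70 and -2.27. The smaller difference of calycosin plus LPS over LPS (-0.54 ± 0.13, adjusted p = 0.0121) was not called without LPS library 2 (-0.45, adjusted p = 0.0539) or calycosin plus LPS library 3 (-0.45, adjusted p = 0.0533). Pdha1, the catalytic subunit that Pdk1 phosphorylates, differed by -0.02 with LPS over vehicle (interval -0.22 to 0.17) and by 0.14 with calycosin plus LPS over LPS (interval -0.06 to 0.34).

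In the pentose phosphate pathway the calls of the entry enzyme differed from those of the other genes, and a difference between genes was not tested. G6pdx, glucose 6-phosphate dehydrogenase, was at 189.7, 214 and 184 CPM in calycosin plus LPS libraries, 309, 323 and 372 CPM in LPS libraries and 319, 326 and 308.5 CPM in vehicle libraries. LPS and vehicle overlapped, with a difference of 0.07 (interval -0.15 to 0.30; -0.73 on TPM, at the median of all genes there, and 0.33 with adjusted p = 0.0175 under a GC correction). Calycosin plus LPS lay below both in CPM, 1.71-fold lower than LPS (-0.77 ± 0.11, adjusted p = 0.00121) and 1.62-fold lower than vehicle (-0.70 ± 0.11, adjusted p = 0.000828), and all 9 fits that left out 1 library called both. On TPM the LPS groups overlapped (98.7 to 171.1 with calycosin plus LPS and 154.5 to 195.7 with LPS). There limma did not call the difference from LPS (-0.44, adjusted p = 0.35) and called that from vehicle (-1.17, adjusted p = 0.0131). G6pdx overlaps the opposite-strand gene Ikbkg over 418 exon bases.

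The other 5 genes, Pgls and Pgd of the oxidative arm and Tkt, Taldo1 and Rpia of the sugar-shuffling arm, fell with LPS by 1.58-fold (Rpia) to 2.00-fold (Taldo1). Within high mitochondrial libraries their log2 fold changes were -0.19 to -0.54, and Pgls was not called with a GC correction (-0.29, adjusted p = 0.228). They were not called between calycosin plus LPS and LPS (-0.50 to 0.18), though Pgls was with a GC correction (-0.62, adjusted p = 0.0364). Each was lower with calycosin plus LPS than with vehicle (-0.48 to -1.27). For Rpia that call was lost in 7 of the 9 fits that each left out 1 library (adjusted p up to 0.142). Taldo1 stood at 73.0, 99.6 and 72.6 CPM with calycosin plus LPS, 74.7, 82.6 and 91.65 CPM with LPS and 195, 210.4 and 93.25 CPM in vehicle libraries. The LPS groups overlapped each other, and vehicle library 3 lay just above the LPS libraries and inside the range of calycosin plus LPS.

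Among HIF1 genes, Hif1a rose while the prolyl hydroxylases Egln1 and Egln3 fell. The other hydroxylase genes, which are not in the set, did not pass with LPS over vehicle: Egln2 was at -0.52 (adjusted p = 0.119) and 0.19 with a GC correction, and Hif1an at -0.14 (adjusted p = 0.522); without the libraries that stand apart both were called (-0.84 and -0.38). Hif1a was at 569.6, 408 and 562 CPM in calycosin plus LPS libraries, 668, 752 and 674.5 CPM in LPS libraries and 238, 204 and 440.4 CPM in vehicle libraries. LPS libraries were above all others, and the lowest calycosin plus LPS library overlapped vehicle library 3. Hif1a was lowest in calycosin plus LPS library 2, which has the lowest mitochondrial share of its group, and highest among vehicle libraries in library 3, which has the highest, and the part of that in the result was not tested. The rise with LPS was 2.37-fold (1.25 ± 0.27, adjusted p = 0.00317; 0.64 within high mitochondrial libraries). Calycosin plus LPS over LPS gave -0.44 (interval -0.98 to 0.09; -0.28 and adjusted p = 0.0433 within high mitochondrial libraries), and over vehicle 0.80 ± 0.27 (adjusted p = 0.0316).

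Egln3 had the largest fall of the set. It was at 1.35, 1.31 and 1.72 CPM in calycosin plus LPS libraries, 1.73, 1.68 and 1.745 CPM in LPS libraries and 11.7, 12.6 and 11.25 CPM in vehicle libraries. All 6 LPS-treated libraries lay far below the 3 vehicle libraries, and vehicle library 3 did not depart from its group. LPS lowered it 6.88-fold (-2.78 ± 0.17, adjusted p = 7.87e-07) and calycosin plus LPS was 8.13-fold below vehicle (-3.02 ± 0.17, adjusted p = 6.62e-07), with -0.24 between the LPS groups (interval -0.59 to 0.11; 0.04 on TPM). Egln1, the main oxygen sensor of HIF1, was at 11.5, 13.5 and 9.975 CPM with calycosin plus LPS, 10.4, 11.6 and 15.25 CPM with LPS and 38.6, 38.7 and 28.7 CPM in vehicle libraries. It fell 2.85-fold with LPS over vehicle (-1.51 ± 0.19, adjusted p = 0.000116), and the difference between the LPS groups was -0.09 (interval -0.47 to 0.29; 0.21 on TPM). Vhl, the ubiquitin ligase subunit that binds hydroxylated HIF, was not called in any comparison (-0.13, 0.08 and -0.05). Bnip3, a mitophagy receptor and HIF1 target, fell 1.46-fold with calycosin plus LPS over LPS (-0.55 ± 0.13, adjusted p = 0.0135), and at adjusted p = 0.0516 without calycosin plus LPS library 3. On TPM this fall was -0.20 and not called.

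**Figure D5:**
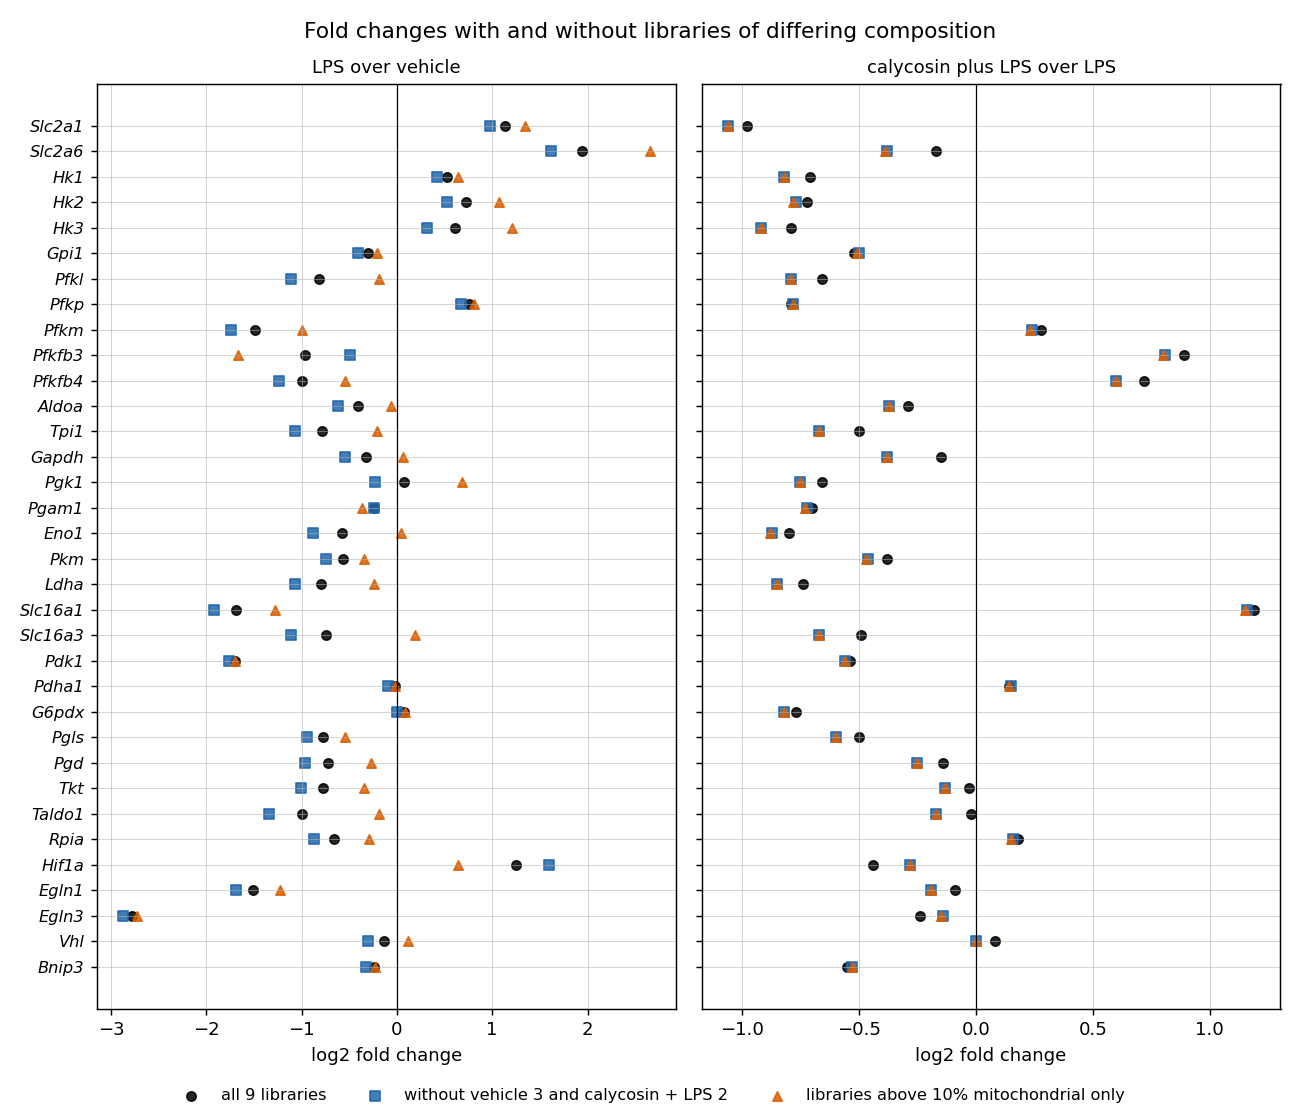
Log2 fold change (x axis) of the 34 genes (y axis) for LPS over vehicle (left) and calycosin plus LPS over LPS (right), with all 9 libraries (circles), without the pair of libraries that stand apart (squares) and with libraries above 10% mitochondrial counts only (triangles). On the left, triangles lie nearer to 0 than circles for most falls (Ldha at -0.24 against -0.80) and hardly move for Pdk1 (-1.70 and -1.70) and Egln3 (-2.73 and -2.78); on the right all 14 called genes keep their side of 0.

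Other genes of these pathways were read from 5 further lists, of which the called genes with the largest change and a mean of at least 5 CPM in the higher group are named. Of 29 further glycolysis and lactate genes 17 were tested. With LPS over vehicle 11 fell (median -0.84, against -0.07 and 28.9% over all genes), and with calycosin plus LPS over LPS 7 rose (median 0.52, against 0.02 and 16.1% over all genes). The shares over all genes given above for each comparison are the background of the other 4 lists too. Falls with LPS were led by the transporter genes Slc2a8 (-2.36), Slc2a3 (-1.61, GLUT3, 10.1 ± 0.463 CPM with LPS and 30.9 ± 9.32 CPM in vehicle cells) and Slc16a6 (-1.51). Rises over LPS were led by the neuronal enolase Eno2 (0.90 ± 0.14, adjusted p = 0.00183), Bpgm (0.69) and the fructose bisphosphatase-like gene Tigar (0.61). Eno2 averaged 47.3 ± 5.85 CPM with calycosin plus LPS, 25.4 ± 1.82 CPM with LPS and 45.5 ± 6.54 CPM in vehicle cells, opposite in direction to Eno1 between the LPS groups. Within high mitochondrial libraries 6 of the 7 rose again over LPS (all but Slc2a4) and Slc2a3 also rose, while limma on TPM called 2 of 15. Against vehicle, calycosin plus LPS left 7 lower, led by Eno3 (-1.75), Slc2a8 (-1.44) and Aldoc (-1.04).

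Around pyruvate dehydrogenase 13 of 15 further genes were tested. LPS over vehicle gave 2 rises and 7 falls, among them the kinase gene Pdk2 (-3.37, 0.546 ± 0.201 CPM with LPS and 5.76 ± 3.25 CPM in vehicle cells), the phosphatase subunit Pdpr (-1.70) and pyruvate carboxylase Pcx (-1.63). Calycosin plus LPS over LPS gave 4 rises and 1 fall, led by Pdpr (0.89), Pcx (0.69) and Pdp1 (0.44, not called within high mitochondrial libraries). Over vehicle, calycosin plus LPS gave 2 rises and 6 falls, with Pdk2 at -1.80, Pck2 at -1.02 and Pcx at -0.94. Of 11 further pentose phosphate and ribose phosphate genes 9 were tested, with 2 rises and 5 falls for LPS over vehicle, 4 rises and 1 fall for calycosin plus LPS over LPS, and 3 of each over vehicle. H6pd, which runs the oxidative steps in the endoplasmic reticulum, stood at 40.3 ± 6.48 CPM with calycosin plus LPS, 15.6 ± 1.18 CPM with LPS and 45.1 ± 5.44 CPM in vehicle cells. It fell with LPS over vehicle (-1.54 ± 0.15, adjusted p = 2.12e-05) and was higher with calycosin plus LPS than with LPS (1.37 ± 0.15, adjusted p = 0.000325), where its cytosolic counterpart G6pdx was lower. The epimerase gene Rpe rose with LPS over vehicle on counts (1.40; 0.58 and not called on TPM) and the ribose phosphate kinase gene Prps2 fell (-1.05). Calycosin plus LPS over LPS raised Prps1 (0.65) and Prps2 (0.46), and over vehicle Pgm1 (1.01) and Rpe (0.96) were higher and Prps2 (-0.59) lower.

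Of 15 further HIF regulators 13 had a row and 11 were tested. With LPS over vehicle 7 rose on counts, led by the CBP/p300 partner Cited2 (1.49), the coactivator gene Crebbp (1.03) and Ep300 (1.03), but limma on TPM called 1 rise and 3 falls, and the list's median was 0.69 with all libraries and 0.35 within high mitochondrial libraries. Crebbp stood at 136, 62.1 and 54.1 CPM in LPS libraries and 32.2, 48.0 and 43.6 CPM in vehicle libraries. Calycosin plus LPS over LPS gave 1 fall. Over vehicle it gave 4 rises, led by Crebbp (0.96), the HIF1 partner Arnt (0.77) and Cul2 (0.56). Within high mitochondrial libraries these 3 were at 1.01, 0.49 and 0.39. On TPM limma called 0 rises and 0 falls for calycosin plus LPS over vehicle. Without the libraries that stand apart that comparison gave 5 rises and 4 falls, and LPS over vehicle 6 and 4. Known HIF targets outside glycolysis numbered 20, of which 18 were tested. LPS over vehicle gave 2 rises and 13 falls (median -0.67), led by the carbonic anhydrase Car12 (-2.0 ± 0.12), Mxi1 (-1.69) and Ddit4 (-1.69), while the collagen hydroxylase subunit P4ha1 rose (1.68). Within high mitochondrial libraries the list's median was -0.42. Calycosin plus LPS over LPS gave 6 rises and 1 fall (median -0.01, against 0.02 over all genes), with Car12 at 0.97, Bhlhe40 at 0.57 and Ndrg1 at 0.56, and on TPM limma called 2 rises. With a GC correction, and also without the libraries that stand apart, that comparison gave 6 rises and 4 falls. Over vehicle 1 rose and 9 fell, with Ddit4 at -1.84, P4ha1 at 1.33 and Mxi1 at -1.19. Car12 stood at 23.7 ± 0.944 CPM with calycosin plus LPS, 12.1 ± 0.835 CPM with LPS and 48.6 ± 5.05 CPM in vehicle cells, the same order as Slc16a1. Mif, the cytokine gene in the study's title, is on this list and stood at 240.0 ± 50.4 CPM with calycosin plus LPS, 325.5 ± 16.7 CPM with LPS and 512 ± 147 CPM in vehicle cells. It was lower with calycosin plus LPS than with vehicle (-1.09, adjusted p = 0.00299), while calycosin plus LPS over LPS did not pass (-0.44, adjusted p = 0.167) with all 9 libraries, and did with a GC correction, without the libraries that stand apart and within high mitochondrial libraries (-0.62 to -0.60, adjusted p up to 0.00656). LPS over vehicle was called (-0.65, adjusted p = 0.0298) but stood at 0.09 with a GC correction and at -0.10 within high mitochondrial libraries.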

How the data were processed

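Polyadenylated RNA of 9 cultures was sequenced. Per the submitters' processing notes, Trimmomatic 0.36, HISAT2 2.0, StringTie 1.3.3b and the mm10 build were used; no source used here gives the counter, its annotation, strand setting or treatment of multi-mapped reads. The authors deposited whole-number counts per gene, not normalized, and TPM values, which the authors scaled for length and depth. Counts were tested with edgeR 4.0.16 (R 4.3.3): genes kept by filterByExpr, TMM scaling, 1 quasi-likelihood fit of all 9 libraries, p adjusted by Benjamini-Hochberg over all genes tested, threshold 0.05. SE comes from the test statistic, and intervals are about ± 2 SE. A total of 22 alternatives were run, among them DESeq2 1.42.0, other scalings, a GC content offset, and limma 3.58.1 on log2(TPM + 1) for genes with a mean TPM of at least 1, which understates changes of low genes. Summing of near-identical copies was added after the data were seen. The scripts were tested on simulated data.

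A count of 3, used as a floor, is worth 0.0602 to 0.1365 CPM, covering counting error only. With 3 against 3 an exact permutation test cannot go below p = 0.1, so none was used. No pair of libraries agreed within sampling noise. Gene positions are from GENCODE M21 (GRCm38) and promoters from RefSeq. The members and gene lists were chosen with earlier results of these data known. Per-library values go to 8 members fixed by name and to the called members with the 5 largest changes in a comparison, and the members whose calls changed between settings were added after their values were seen.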

Additional observations from a re-analysis of the deposited data

How the results depend on the processing

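Of the comparisons of named genes with an alternative, 1003 kept direction and side of the threshold, 94 lost and 40 gained a call, and 51 changed sign; of the counts of called genes 102 stayed within 1.5 times and 30 did not. The causes were not tested. With LPS over vehicle, rises numbered 2 on TPM with either pseudocount and 1 without the filter, and falls 7 within high mitochondrial libraries, where 1 vehicle library is left and is assumed to vary like the other groups. With calycosin plus LPS over LPS, falls numbered 19 with mitochondrial share as a covariate, 19 without the libraries that stand apart, 20 within high mitochondrial libraries and 0 on TPM under each setting (limma, 0 also at an unadjusted p below 0.05; DESeq2 on counts 15), and rises 1, 1 and 0 on TPM. With calycosin plus LPS over vehicle, rises numbered 1, 1 and 0 on TPM, and falls 11 on unfiltered TPM. Leaving out 1 library gave 5 to 6 rises and 15 to 19 falls with LPS over vehicle, 1 to 2 and 6 to 18 with calycosin plus LPS over LPS, and 1 to 2 and 19 to 25 with calycosin plus LPS over vehicle.

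Signs changed as follows. With LPS over vehicle, TPM gave Hk2 -0.02, Hk3 -0.08 and G6pdx -0.73, G6pdx was 0.00 without the libraries that stand apart and without vehicle library 3 or LPS library 3, and Eno1 was 0.04 within high mitochondrial libraries. With calycosin plus LPS over LPS, TPM gave Slc2a6 0.13 to 0.14, Egln1 0.21 to 0.25 and Egln3 0.04 to 0.08, and leaving out LPS library 3 or calycosin plus LPS library 3 gave Egln1 0.09 and 0.02 (-0.20 to 0.09 over all libraries left out). With calycosin plus LPS over vehicle, Hk2 was -0.01 with DESeq2's size factors, -0.02 in DESeq2, 0.00 without a count filter, -0.40 on TPM, -0.25 without the libraries that stand apart (adjusted p = 0.0178), -0.02 without mitochondrial genes, and -0.17 to 0.11 without 1 library (-0.17 without vehicle library 3, -0.06 without calycosin plus LPS library 2). Hk3 was 0.08 with the covariate, 0.18 with the GC correction and 0.29 within high mitochondrial libraries; Pfkp was 0.00 with the covariate, 0.03 within those libraries and -0.10 to 0.01 without 1 library. Pfkfb3 was 0.01 with the GC correction, 0.32 without the libraries that stand apart and -0.34 to 0.42 without 1 library (0.42 without vehicle library 3, 0.27 without calycosin plus LPS library 3), Pfkfb4 0.00 with the GC correction and 0.06 within high mitochondrial libraries, and Slc2a1 -0.30 on TPM and -0.08 without the libraries that stand apart.

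Same-numbered libraries of different groups deviated together with r of -0.17 to 0.36, and differently numbered ones with r of -0.47 to 0.36. The values of -0.47 and 0.36 involve calycosin plus LPS library 2, which stands apart from its group. These values therefore cannot show whether a day or batch was shared. With a replicate block 6 rose and 15 fell with LPS over vehicle, 2 and 11 with calycosin plus LPS over LPS, and 2 and 19 with calycosin plus LPS over vehicle, and Pfkfb3 was 0.16 in the last. Depth did not place any member at the floor: the lowest level, Egln3 at 1.31 CPM, stood above the floor of 3 counts.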
